A study of Mus musculus with 2 samples.

Results

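Endothelial cells of the mouse heart at E12.5 that carried no UMI of Npr3 and at least 1 UMI of Fabp4, Cldn5, Aplnr or Apln are described here. They were chosen by these measured counts, and they were 97 of 8740 cells: 45 of 4100 in the control library and 52 of 4640 in the mutant library. A UMI (unique molecular identifier) counts 1 captured RNA molecule. The gate first asked for at least 1000 UMIs, 500 genes and no more than 20% mitochondrial UMIs per barcode. It then asked for fewer than 30 UMIs of the troponins Tnnt2 and Tnnc1 per 10000, and for at least 3 UMIs over at least 2 of the endothelial genes Pecam1, Cdh5, Egfl7, Emcn, Ecscr and Esam. Within this endothelial gate of 532 cells, 111 cells with at least 1 UMI of Npr3 are called Npr3-positive, and 324 cells with neither Npr3 nor a vessel gene form a remaining class. The cells of interest are called Npr3-free, although the remaining class lacked Npr3 UMIs too.

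Hearts were dissociated with TrypLE and profiled in droplets with a 10X Genomics Chromium kit. Control embryos carried Tbx18-Cre and YFP/+, and mutant embryos carried Tbx18-Cre, YFP/+ and Prmt1 fl/fl, so Cre and the YFP allele were shared by both groups. The Tbx18 locus drives Cre in the epicardium, which covers the outside of the heart, and the series title names an epicardial-specific deletion. Endothelial cells are therefore not the cells in which the title places the deletion. Each genotype had 1 library. The sources used here give neither the number of embryos pooled nor any sort of the cells. With 1 library a group there is no test between genotypes, and every interval below is a 95% interval that covers counting error only.

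As background, the embryonic heart holds more than 1 kind of endothelium. Endocardium lines the chambers, faces the blood flow and carries the natriuretic peptide clearance receptor Npr3. The coronary plexus grows through the wall as small vessels, and its cells are known for the fatty acid chaperone Fabp4, the tight junction protein Cldn5 and apelin signalling, in which the ligand Apln acts on the receptor Aplnr. Endothelial cells also line the outflow vessels, veins and cushions, and none of these places is labelled in droplet data.

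Of all control cells 1.10% were Npr3-free (exact Clopper-Pearson interval 0.802% to 1.47%), and of all mutant cells 1.12% (0.838% to 1.47%). The difference of 0.023 percentage points had a Newcombe interval from -0.43 to 0.466 and thus spanned 0. Of the gated endothelial cells they were 21.3% (16% to 27.5%) in the control and 16.2% (12.3% to 20.7%) in the mutant, a difference of -5.13 points with an interval from -12.2 to 1.54. Npr3-positive cells were 0.902% of all control and 1.59% of all mutant cells, a difference of 0.692 points (0.225 to 1.16). Of the gated endothelial cells their difference was 5.52 points, with an interval from -1.60 to 12.2 that spanned 0. The remaining class was also a larger share of all mutant cells, by 1.06 points (0.264 to 1.84). Muscle cells were 49.2% of all control and 34.7% of all mutant cells, which bears on every other share. A share of dissociated cells depends on which cells came free and passed the minimums.

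Depth and foreign RNA differed among these cells and touch the results that follow. The deposited matrices held 49323576 UMIs (control) and 48527471 UMIs (mutant), the first unfiltered and the second already filtered for barcodes. The median Npr3-free cell held 4259 UMIs (control) or 4651 UMIs (mutant), with a range from 1580 to 74474 over both libraries. Their deepest cell held 15.6% of all their UMIs in the control and 12.9% in the mutant. Haemoglobin took 0.637% of the UMIs of control and 13.8% of those of mutant Npr3-free cells. At least 5% of the UMIs were haemoglobin in 2 control and 5 mutant cells, whereas the median cell had 0.0198% and 0.0297%. The deepest mutant cell alone, with 42.2% haemoglobin, gave 39.4% of the haemoglobin UMIs. The median Npr3-positive cell was deeper, with 5319 UMIs (control) or 5658 UMIs (mutant). Haemoglobin took 6.35% and 8.35% of the UMIs of Npr3-positive cells, and their deepest cell held 19.7% and 5.10% of them. The doublet caller marked 0 cells in either library and so did not work. By score alone, 1 of the 45 control and 6 of the 52 mutant cells stood among the top 6% of their library. The libraries shared 8 barcodes among passing cells and 0 among Npr3-free cells.

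The gate fixed the presence of its own genes, so their levels describe the cells and support nothing. Levels are given as CPM, the UMIs of a gene summed over a class and scaled to the same total for every class. Levels are not compared between genes, since capture differs between them. Fabp4 (3:10204088-10208576 in GRCm38) was seen in 40 of the 45 control cells and 38 of the 52 mutant cells, at 1750 and 768 CPM. Its share of cells was 88.9% and 73.1% at these depths, against 4.36% and 2.86% of muscle cells at median depths of 11665 and 12801 UMIs. Cldn5 (16:18776847-18778262) was seen in 19 and 26 cells, at 109 and 105 CPM, and in 0.0991% and 0.311% of muscle cells. Aplnr was seen in 11 cells of each library, at 49.4 and 34.6 CPM, and Apln in 3 and 4 cells. Fabp4 thus brought in most of the cells, and its level was the one of the 4 that differed most between the libraries.

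**Figure D1:**
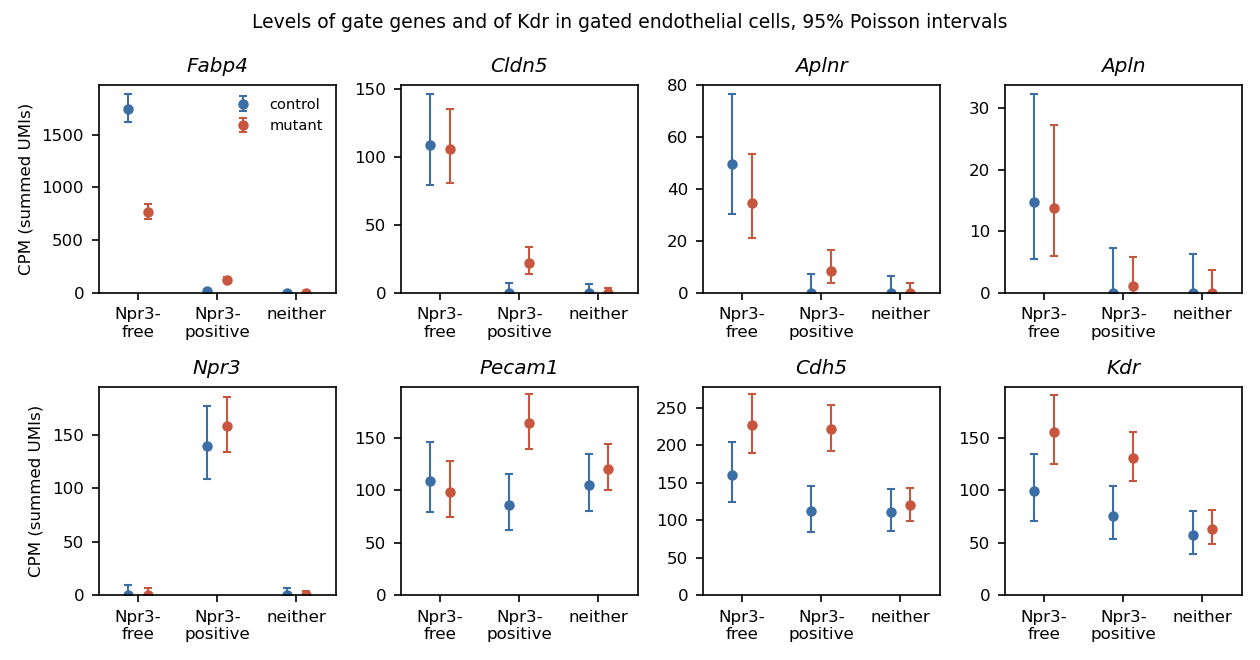
Level (CPM of summed UMIs, y axis) of 7 gate genes and of Kdr in the Npr3-free, Npr3-positive and remaining gated cells of the control (blue) and mutant (red) library; bars are 95% Poisson intervals. Npr3 and the vessel genes separate the classes because the gate used them, whereas Kdr lies between 56.9 and 156 CPM in all 6 groups.

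Many cells stood close to the limits of the gate. A single vessel UMI admitted 22 of the 97 cells, 10 had exactly 3 UMIs of the endothelial genes, and the median cell had 8.0 of these. On the other side of the Npr3 limit, 73 of the 111 Npr3-positive cells had exactly 1 Npr3 UMI, and 10 of the 111 also had a vessel UMI. The 324 gated cells without either had median depths of 2440 and 3365 UMIs (control, mutant), below the Npr3-free cells. For some named genes the cells admitted by 1 vessel UMI lay closer to the Npr3-positive cells than the rest did. Kcne3 had 2 UMIs (9.16 CPM) in these 22 cells and 147 CPM in the other 75, and Tcf15 27.5 and 153 CPM, beside 22 CPM in Npr3-positive cells.

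The label was checked against markers listed for endothelial and other cell types. Markers that the gate required were present by choice: Pecam1 (adhesion at endothelial contacts) stood at 109 CPM in control and 98.6 CPM in mutant Npr3-free cells, and Cdh5 (VE-cadherin) at 161 and 227 CPM. The VEGF receptor Kdr, which the gate did not use, was at 98.9 and 156 CPM, against 1.31 and 1.41 CPM in muscle cells. Gpihbp1, which carries lipoprotein lipase across capillary cells, was at 56.9 and 32.9 CPM in Npr3-free and at 3.99 and 6.29 CPM in Npr3-positive cells. Plvap, a protein of endothelial diaphragms that was listed as a vessel marker, went the other way, with 79.1 and 89.9 CPM against 349 and 408 CPM. The fatty acid transporter Cd36 was close to nothing, with 1 and 8 UMIs (control, mutant). Of the 8 vessel genes listed 4 were measured: Fabp4 and Cldn5, both of the gate, were higher in Npr3-free cells, and Plvap was lower.

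Markers of other cells were few, with exceptions. The 8 macrophage markers summed to 7.42 and 8.65 CPM, with 7 of 8 at 0 in the control and 6 of 8 in the mutant. The 6 leukocyte markers summed to 14.8 and 12.1 CPM, with 4 of 6 at 0 in each library. The 6 mural markers summed to 7.42 and 8.65 CPM, the 7 epicardial markers to 7.42 and 32.9 CPM, and the 7 mesenchymal markers to 56.9 and 51.9 CPM. Muscle and blood RNA were not equal between libraries: the 9 cardiomyocyte markers summed to 134 and 796 CPM.

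The Npr3-free cells were not alike among themselves, and levels of some genes differed when cells were split by the vessel genes seen in them. This split was chosen after values were seen. At least 2 vessel genes were seen in 17 control and 21 mutant cells, Fabp4 alone in 24 and 19, Cldn5 alone in 4 and 11, and Aplnr alone in 1 mutant cell. Seeing more genes goes with depth: the median over both libraries was 6639 UMIs with at least 2 genes, 4259 with Fabp4 alone and 2950 with Cldn5 alone, and the part of depth in the differences was not tested.

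Klf2 (8:72319033-72321656), a transcription factor that responds to blood flow, differed along this split. Cells with at least 2 vessel genes had 305 CPM in the control and 309 CPM in the mutant. Cells with Fabp4 alone had 6680 and 2498 CPM, and cells with Cldn5 alone 7564 and 5184 CPM. The Poisson intervals of the first group (235 to 390 and 255 to 372) lay far below all others. Klf2 UMIs were uneven among cells, since 1 cell gave 52.5% and 73.7% of those in cells with Fabp4 alone, yet without that cell the level was still 5014 and 1035 CPM.

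Among the genes picked for this split, Mfng and Cd34 were higher in cells with at least 2 vessel genes than in cells with Fabp4 alone. Mfng, a glycosyltransferase that modifies Notch receptors, had 129 and 79.3 CPM in cells with at least 2 vessel genes, and 17.5 and 19.3 CPM in cells with Fabp4 alone. Cd34, a sialomucin of small vessels, had 329 and 205 CPM with at least 2 genes, 163 and 174 CPM with Fabp4 alone, and 43.5 and 0 CPM with Cldn5 alone. Pdgfb, the ligand by which endothelium recruits mural cells, had 52.4 and 49.2 CPM with at least 2 genes, and 0 UMIs in the cells with Cldn5 alone. The latter held only 23004 and 52275 UMIs in all, so 0 UMIs of Pdgfb there do not show a lower level. The endothelial transcription factor Sox17 did not separate the first groups, with 291 and 243 CPM against 285 and 238 CPM, and had 0 UMIs in the 4 control cells with Cldn5 alone.

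Gja4 and Fn1 were higher in cells with Cldn5 alone. Gja4 (connexin 37, a gap junction protein) had 391 and 383 CPM there, against 4.77 and 43.7 CPM with at least 2 vessel genes, although in the control all of it came from 1 cell. Fn1 (fibronectin) had 1000 and 402 CPM there, against 33.4 and 30.1 CPM. These 15 cells held only 75279 UMIs together. Some high levels of the cells with Fabp4 alone rested on 1 or a few cells: Wnt4, a secreted Wnt ligand, had 115 UMIs in 3 control cells and 121 UMIs in 1 mutant cell.

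**Figure D2:**
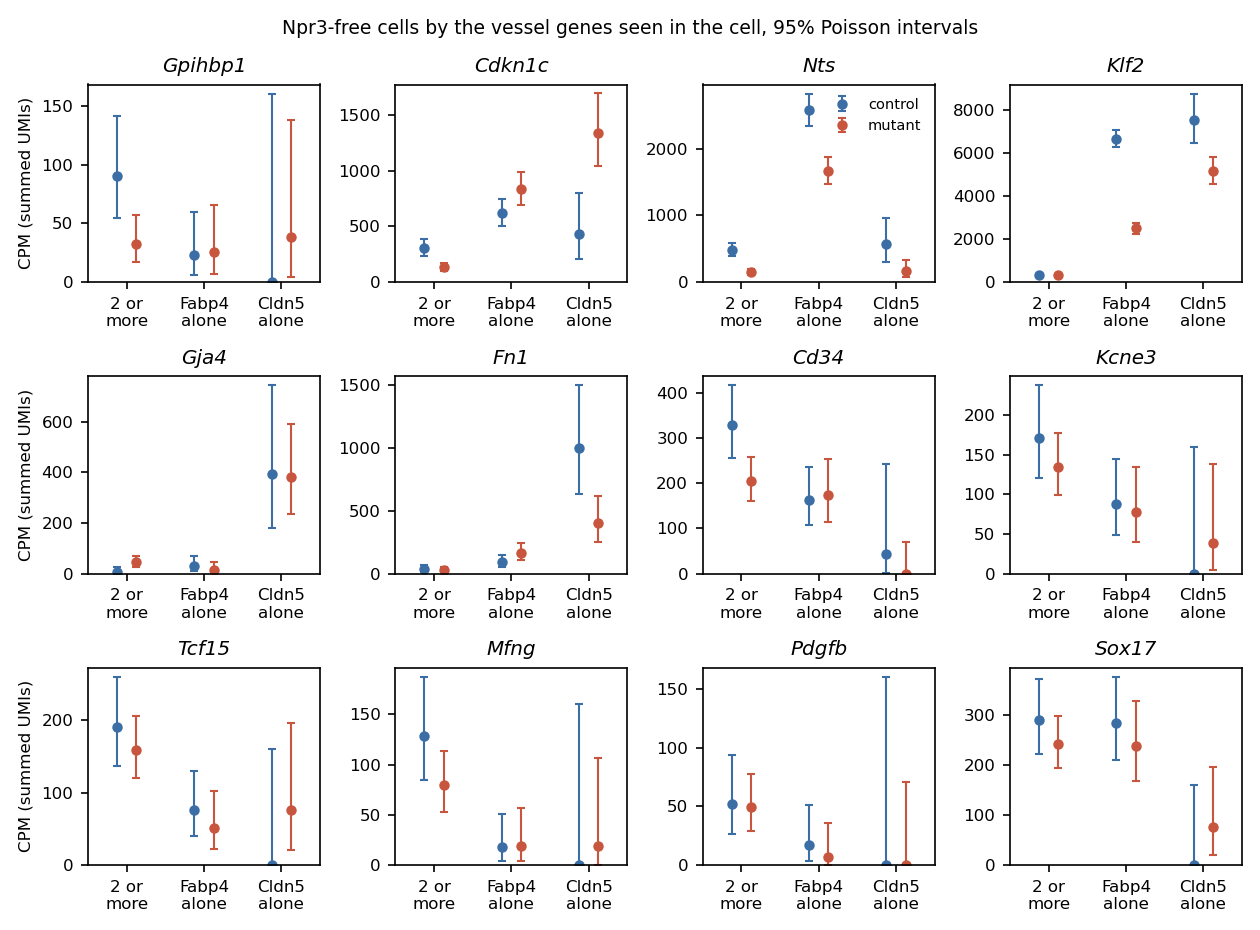
Level (CPM of summed UMIs, y axis, scale differs by panel) of 12 genes in Npr3-free cells with 2 or more vessel genes seen (17 control and 21 mutant cells), Fabp4 alone (24 and 19) or Cldn5 alone (4 and 11), with 95% Poisson intervals. Klf2 is lowest and Mfng highest in the first group of both libraries, and the intervals of the Cldn5 group are wide.

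The next comparison set the Npr3-free against the Npr3-positive cells within each library. It is a description without a test, since the gate sorted the cells by these same profiles. Of 2472 genes with at least 50 CPM in 1 of the classes and at least 30 UMIs in each library, 32 (1.29%) were at least 2-fold higher in both libraries and 84 (3.4%) at least 2-fold lower in both, on the log2(CPM + 10) scale. The medians over all genes were 0.08 in the control and -0.10 in the mutant. On this scale the fold of low genes is understated.

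The highest genes by the naming rule were Kcne3 and Clec1b. Kcne3 (7:100176502-100184869), a potassium channel subunit known from tip cells of growing vessels, had 51 UMIs (126 CPM) in 16 of the control Npr3-free cells and 0 in the Npr3-positive cells, at least 21.1-fold higher against a floor of 3 UMIs. In the mutant it had 109 against 3.15 CPM, a ratio of 34.6 with an exact interval from 11.3 to 172. It was thus near absent from Npr3-positive cells of both libraries. Clec1b (6:129397297-129409335), a C-type lectin receptor best known from platelets, had 195 against 7.98 CPM in the control and 150 against 16.8 CPM in the mutant. Its ratios were 24.5 (9.19 to 92) and 8.97 (5.22 to 16.4). The 7 megakaryocyte markers summed to 32.1 and 24.2 CPM in Npr3-free and 35.9 and 21 CPM in Npr3-positive cells. The part of such RNA in the Clec1b levels was not tested.

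Transcription factors were among the genes higher in Npr3-free cells. Sox17 (1:4490931-4497354), known from arterial and coronary endothelium, had 272 against 14.0 CPM in the control and 232 against 36.7 CPM in the mutant, ratios of 19.5 (9.14 to 49.5) and 6.31 (4.32 to 9.44). Tcf15, a partner of Meox2 in the fatty acid uptake of heart endothelium, had 131 against 5.99 CPM and 121 against 30.4 CPM. Meox2 itself had 3 and 12 UMIs in Npr3-free cells against 0 and 3. Mef2c had 198 against 63.9 CPM and 216 against 120 CPM. Of the 24 endothelial transcription factors listed, 11 were measured at the minimums, and at 1.5-fold 3 of them were higher in both libraries (Sox17, Tcf15 and Mef2c), 1 was lower (Nr2f2, a factor of veins) and 7 were neither. Over all genes 4.94% were higher and 8.5% lower at that size.

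The other genes of the 12 highest had varied roles. Gng11, a G protein gamma subunit, had 1644 against 269 CPM in the control and 1257 against 317 CPM in the mutant, seen in 44 of 45 and 49 of 52 Npr3-free cells. Gap43, a growth-associated membrane protein, had 368 against 65.9 CPM and 218 against 46.1 CPM. The calcium-binding S100a16 had 643 against 116 CPM and 367 against 130 CPM. Rgcc, a cell cycle regulator known from endothelium, had 84.1 CPM against 0 UMIs and 50.2 against 4.19 CPM. All 4 were higher in each library by more than their counting intervals. Fam167b, Nhp2 and Mxra7 completed the 12 with ratios from 2.94 to 4.4. The neuropeptide precursor Nts was also among the 12, with 1372 against 255 CPM and 560 against 28.3 CPM, but 57.1% and 72.8% of its UMIs in Npr3-free cells came from 1 cell of each library.

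Glycolysis genes were higher as a group. Of the 20 genes listed for hypoxia and glycolysis 8 were measured. At 1.5-fold 5 were higher in both libraries and 0 lower, where 4.94% of all genes were higher and 8.5% lower. The list medians were 1.14 in the control and 0.67 in the mutant. Eno1 (enolase) had 1011 against 194 CPM and 771 against 354 CPM, and Aldoa (aldolase) 2275 against 992 CPM and 1622 against 599 CPM. Gapdh, Pgk1 and Pkm were the other 3, with ratios from 1.53 to 2.74. These genes were also high in muscle cells, with Eno1 at 956 and 1073 CPM there. The summed cardiomyocyte markers were lower in Npr3-free than in Npr3-positive cells in the control (134 against 2327 CPM) and higher in the mutant (796 against 562 CPM), and their part in the glycolysis levels was not tested. The p53 targets Bax and Rps27l were higher too, with ratios from 1.65 to 1.80, out of 4 measured on that list and 0 lower.

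**Figure D3:**
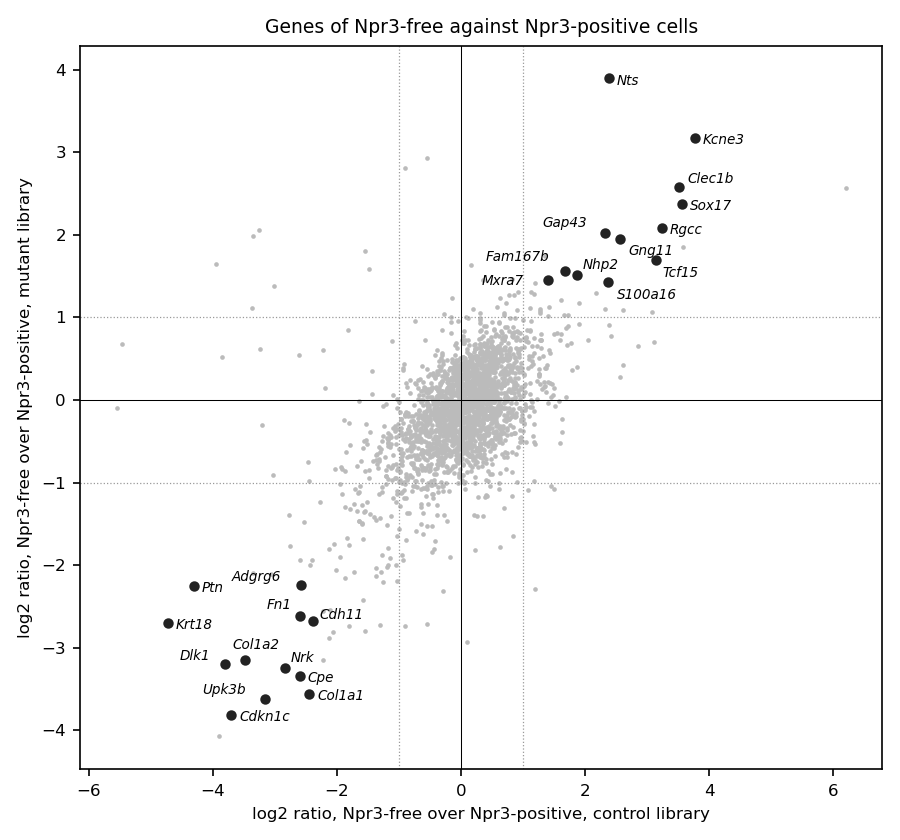
Log2 ratio of Npr3-free over Npr3-positive cells on the CPM + 10 scale in the control (x axis) and mutant (y axis) library for 2472 genes, gate genes included; dotted lines mark 2-fold, and the 12 highest and 12 lowest genes by the naming rule are black and labelled. Kcne3, Clec1b and Sox17 lie at the upper right and Cdkn1c at the lower left in both libraries.

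Among the genes lower in Npr3-free cells, Cdkn1c (7:143458339-143461050) stood out. It encodes the cell cycle inhibitor p57 and is imprinted. Npr3-free cells had 445 CPM in the control and 427 CPM in the mutant, and Npr3-positive cells 5916 and 6142 CPM. The Npr3-positive level was 13.3-fold higher (11.4 to 15.5) and 14.4-fold higher (12.7 to 16.4), nearly the same in both libraries. It was seen in 14 of 45 and 21 of 52 Npr3-free cells, against 36 of 37 and 69 of 74 Npr3-positive cells. Muscle cells had 724 and 925 CPM, above the Npr3-free cells. Dlk1, also imprinted, a membrane protein related to Notch ligands, had 0 and 1 UMI in Npr3-free cells against 130 and 97.5 CPM. H19, an imprinted long RNA next to Igf2, had 551 against 1661 CPM and 377 against 2068 CPM. No list of imprinted genes was counted, and the imprinted gene Peg10 was among the higher genes, with log2 ratios of 1.89 and 1.18. Plagl1, an imprinted zinc finger factor, had 56.9 against 144 CPM and 65.7 against 297 CPM.

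The insulin-like growth factor list went the same way. Of 11 genes listed 7 were measured, and 4 were lower in both libraries and 0 higher: the receptor Igf2r, H19, Igf2 and Igf1. Over all genes 8.5% were lower and 4.94% higher at the same size of 1.5-fold. The list medians were -1.55 and -1.42. Igf2r, which clears Igf2, had 29.7 against 156 CPM in the control and 45.0 against 375 CPM in the mutant. Igf2 had 32.1 against 102 CPM and 20.8 against 72.4 CPM, over only 13 and 12 UMIs in Npr3-free cells.

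Cardiac transcription factors were lower as well. Of 14 listed, 5 were measured and 4 were lower in both libraries at 1.5-fold, where 8.5% of all genes were: Irx5, Gata6, Hand2 and Meis2. Gata6 had 14.8 against 97.8 CPM in the control and 22.5 against 179 CPM in the mutant, Npr3-positive levels 6.59-fold (2.82 to 18.8) and 7.98-fold (4.54 to 15.3) higher. Irx5 had 3 and 2 UMIs in Npr3-free cells against 65.9 and 89.1 CPM. The 1 higher member was Mef2c. The 7 mesenchymal markers were lower too, with 56.9 against 383 CPM and 51.9 against 685 CPM, and their part in these levels was not tested.

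Of 8 endocardial genes listed 6 were measured, and 4 were lower in both libraries and 0 higher: Npr3, which the gate used, Cdh11, Plagl1 and Cgnl1. At the same size of 1.5-fold 8.5% of all genes were lower. Cdh11, a cadherin of mesenchyme and endocardium, had 9.89 against 93.8 CPM and 15.6 against 154 CPM. Adgrg6, an adhesion receptor in no list, had 4.94 against 79.8 CPM and 6.92 against 70.3 CPM. Cgnl1, a junction adaptor, had 84.1 against 170 CPM and 46.7 against 208 CPM. Vwf, the clotting factor carrier, had 0 and 2 UMIs against 29.9 and 46.1 CPM, under the minimum for the count. Hapln1, which binds hyaluronan in the cushions, did not separate the classes, with 181 against 228 CPM and 216 against 211 CPM, and 1 cell gave 71.2% and 86.4% of its UMIs in Npr3-free cells. The matrix genes Fn1 and Ptn were lower in Npr3-free cells as well: Fn1 had 114 against 741 CPM and 100 against 665 CPM, and the growth factor Ptn 24.7 against 679 CPM and 105 against 539 CPM. Nrk and Cpe were also among the 12 lowest genes. In Npr3-positive cells of the control 1 cell gave 47.9% of the Ptn, 43.9% of the Fn1 and 60% of the Dlk1 UMIs. In the mutant these shares were 12.3%, 8.52% and 40.9%. Whether the lower genes came from endothelial cells or from foreign RNA was not tested.

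A part of the lower genes were markers listed for epicardium or mesenchyme and were seen in few Npr3-positive cells. Upk3b, a uroplakin of the epicardium, was seen in 1 control and 7 mutant Npr3-positive cells, Krt18 in 3 and 7, Col1a1 in 3 and 9, and Col1a2 in 4 and 13. In the control 1 cell gave 100% of the Upk3b, 98.4% of the Krt18, 89.7% of the Col1a1 and 84.3% of the Col1a2 UMIs of Npr3-positive cells. In the mutant these shares were 27.7%, 31.1%, 36.5% and 29.8%. The 7 epicardial markers summed to 381 and 357 CPM in Npr3-positive cells, of which 1 control and 8 mutant cells held at least 3 such UMIs. Without cells holding 3 or more epicardial or mesenchymal UMIs, 42 and 46 Npr3-free and 29 and 51 Npr3-positive cells were left, and the counts became 24 higher and 63 lower genes. Of the 32 higher genes 16 were among these and 4 were no longer measured, and of the 84 lower genes 27 were among these and 51 no longer measured. Without cells of at least 5% haemoglobin the counts were 22 and 75, with 21 and 62 genes shared. When cells counted as Npr3-positive only from 2 Npr3 UMIs, 76 genes were higher. Under all 18 alternatives other than thinning, 8 genes stayed past 2-fold on the higher side (some of them named after their values were seen: Sox17, Fabp4, Eno1, Gng11, Clec1b, Aldoa, Mif and Gap43) and 11 on the lower side (Fn1, Mdk, Gja4, Mfap2, H1fx, Mgst1, H19, Cdkn1c, Plvap, Ctsl and Npr3). Fabp4 and Npr3 are genes of the gate, which fixed their side.

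Of 16 genes listed for VEGF and angiopoietin 5 were measured: Kdr and Flt1 did not pass 1.5-fold in both libraries, whereas Tek and Tie1 (the angiopoietin receptor and its partner) and the ligand Vegfb were lower, with list medians of -0.60 and -0.64. At this size 8.5% of all genes were lower in both libraries. Tek had 37.1 against 85.8 CPM and 55.3 against 130 CPM. Kdr had 98.9 against 75.8 CPM in the control, a ratio of 1.3 (0.815 to 2.09), and 156 against 131 CPM in the mutant, a ratio of 1.19 (0.895 to 1.57). Both intervals spanned 1. The ligands Vegfa, Angpt1 and Angpt2 had at most 3 UMIs each in Npr3-free cells of either library. In the apelin list the ligand Apela (also named Elabela) had 0 and 2 UMIs in Npr3-free cells against 25 and 64 UMIs in Npr3-positive cells. In the latter, however, those came from 1 and 7 cells.

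Of 17 Notch genes 2 were measured, and 1 was higher in both libraries at 1.5-fold, where 4.94% of all genes were. Mfng was higher, with 74.2 CPM against 0 UMIs in the control, at least 12.4-fold, and 57.1 against 22 CPM in the mutant. The effector Hes1 was not past 1.5-fold in both libraries, with 171 against 122 CPM and 164 against 212 CPM. The ligand Dll4 had 8 and 9 UMIs in Npr3-free cells, against 1 and 8 UMIs in Npr3-positive cells, and in the control its ratio of 9.91 had an interval from 1.33 to 440. Notch1 had 37.1 against 29.9 CPM and 43.2 against 97.5 CPM, opposite in the 2 libraries. Artery and vein genes were split: Sox17 was higher and Gja4 lower among artery genes, and Nr2f2 was the 1 vein gene measured. Gja4 had 37.1 against 309 CPM and 65.7 against 249 CPM. Prox1 of the lymphatic list had 1 and 3 UMIs, and 0 lymphatic genes reached the minimums.

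Of all genes 4.94% were higher and 8.5% lower in both libraries at 1.5-fold, beside which the next counts stand. Of 16 fatty acid uptake genes 4 were measured. Fabp4, used by the gate, and Tcf15 were higher, and Fabp5 and the acyl-CoA carrier Dbi were not: Fabp5 had 2532 against 2305 CPM and 1916 against 1758 CPM, ratios of 1.10 and 1.09. Lpl had 0 and 7 UMIs in Npr3-free cells. Of 11 S phase genes measured 0 passed 1.5-fold in both libraries, and of 18 G2/M genes 1 did, Cdc20, with 71.7 against 14.0 CPM and 57.1 against 31.5 CPM. The G2/M list median was 0.75 in the control and 0.20 in the mutant, and that of S phase -0.01 and -0.11.

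The remaining class, gated cells with neither Npr3 nor a vessel UMI, was set beside both. Over the 113 called genes that were not in the gate, it lay nearer the Npr3-positive cells in both libraries for 77 and nearer the Npr3-free cells in both for 10. Among the 30 higher genes these were 19 and 5, and among the 83 lower genes 58 and 5. Cdkn1c had 1711 and 2265 CPM there, between the 2 named classes, and Kcne3 8.62 and 21.5 CPM. This class was the shallowest, so a missing UMI in it says less.

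The last comparison set the mutant against the control library within Npr3-free cells. The targeted gene, Prmt1, was at 663 CPM in the control, in 41 of 45 cells, and at 534 CPM in the mutant, in 51 of 52 cells. In Npr3-positive cells it was at 519 and 423 CPM. The sources used here do not say which exons the floxed allele removes, and a count per gene outside the deleted part checks nothing. Of 2619 genes with at least 50 CPM in 1 library and 30 UMIs over both, 60 (2.29%) were at least 2-fold higher in the mutant and 56 (2.14%) at least 2-fold lower. The median over all genes was -0.24, and relative to that median the split became 93 higher and 20 lower. Log2 ratios between genotypes below are all relative to the median gene, also where both levels are given, and CPM levels are not.

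Most of the highest genes were red cell genes or were high in the same haemoglobin-rich cells. The haem synthesis enzyme Alas2 went from 2.47 to 157 CPM and the anion exchanger Slc4a1 from 2.47 to 93.4 CPM. Car2, Bpgm, Slc25a37, Hsd3b6 and the metallothioneins Mt1 and Mt2 went with them, with log2 ratios from 3.02 to 4.14. Without the 2 control and 5 mutant cells of at least 5% haemoglobin, Alas2 and Slc4a1 had 0 UMIs in both libraries, and Car2 and Mt1 turned to -1.01 and -1.37. All 9 red cell genes listed were at least 1.5-fold higher in the mutant, where 5.99% of all genes were.

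Another 3 of the highest genes were contractile or muscle genes. Myl7, an atrial myosin light chain, had 14.8 CPM in the control and 394 CPM in the mutant, but 69.7% of the mutant UMIs came from 1 cell. Acta2 (smooth muscle actin) had 39.6 and 306 CPM and Fabp3, a fatty acid carrier of muscle, 0 and 60.5 CPM, at least 8.16-fold. In Npr3-positive cells all 3 were lower in the mutant instead, with Myl7 at 1152 and 422 CPM. Cells with at least 2 vessel genes had 57.2 and 16.4 CPM of Acta2, so its difference was carried by the other cells.

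On the lower side, Klf2 had 3424 CPM in control and 1335 CPM in mutant Npr3-free cells, a 2.56-fold lower level (2.35 to 2.80) before centring, against 2605 and 3036 CPM in Npr3-positive cells. The lower mutant level was seen in the cells with 1 vessel gene: in cells with at least 2 the levels were 305 and 309 CPM, as given above. Immediate early genes, which rise with stress and dissociation, were lower together. Of 12 measured 9 were at least 1.5-fold lower and 0 higher, where 13.7% of all genes were lower, with a list median of -0.67 relative to all genes, and 1.02 in Npr3-positive cells. Jund had 1011 and 365 CPM, and Atf3 292 and 96.8 CPM. In the control, 49.4% of the Jund UMIs and 62.7% of the Atf3 UMIs came from 1 cell. Without that cell within the Fabp4 group, Jund had 570 CPM there in place of 1538 CPM.

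Single cells weighed on both sides. Among the 60 higher genes 16 had at least 50% of their mutant UMIs from 1 cell, and 22 were led by the same cell. Among the 56 lower genes 15 had at least 50% of their control UMIs from 1 cell, and 37 were led by the same control cell. In Npr3-positive cells 16 of the 60 and 24 of the 56 did not share the sign before centring, with 1 of the 24 at exactly 0. Hspb1, a small heat shock protein, went from 316 to 55.3 CPM with 77.3% of the control UMIs from 1 cell, and Nppc, a natriuretic peptide, was seen in 1 cell of each library. Spread over more cells were Pop4, an RNase subunit, with 43 UMIs in 21 control cells and 17 UMIs in 14 mutant cells (106 and 29.4 CPM), and the tubulin Tubb2a, with 205 CPM in 20 cells and 72.6 CPM in 13 cells. Under all 18 alternatives other than thinning Tubb2a was the 1 gene that stayed at least 2-fold lower, and 3 stayed at least 2-fold higher: Myl7, Pttg1 (securin) and the gene model Gm10320. In Npr3-positive cells the log2 ratios of these 3 before centring were -1.43, 0.57 and 4.64. Gm10320, at 4.37 in Npr3-free cells, was thus not particular to them.

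**Figure D4:**
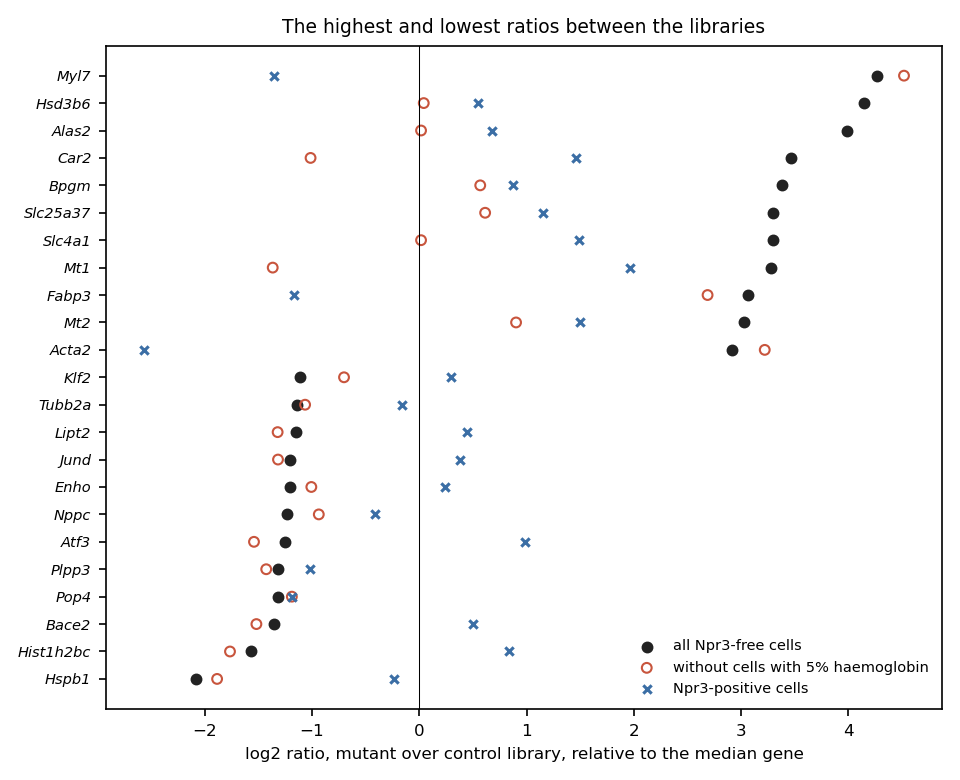
Log2 ratio of mutant over control relative to the median gene (x axis) for 11 of the highest and the 12 lowest named genes in Npr3-free cells (black), without cells of at least 5% haemoglobin (open red circles) and in Npr3-positive cells (blue crosses). Alas2 and Slc4a1 drop to near 0 without the haemoglobin-rich cells, and Myl7, Acta2 and Fabp3 lie on opposite sides in the 2 classes.

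Genes that set the Npr3-free class apart were both close and different between genotypes. Relative to the median gene, Kcne3, Sox17, Clec1b and Cdkn1c had log2 ratios of 0.05, 0.02, -0.11 and 0.18. Nts was lower in the mutant, with a log2 ratio of -1.04, and Ptn higher, with 1.98. Ptn had only 10 UMIs in 3 control and 61 UMIs in 6 mutant Npr3-free cells. In Npr3-positive cells the log2 ratios of Nts and Ptn were -2.72 and -0.25. Fabp4 had 1750 and 768 CPM, a log2 ratio of -0.94, but in Npr3-positive cells it went the other way, with 2.46 before centring. Gpihbp1 had 56.9 and 32.9 CPM, a log2 ratio of -0.40, which did not pass 1.5-fold. In cells with at least 2 vessel genes Fabp4 had 1759 and 1006 CPM, and with Fabp4 alone 1974 and 489 CPM. Since Fabp4 admitted the cells, its level depends on which cells entered. Kdr was higher, with 98.9 and 156 CPM, a log2 ratio of 0.85, and in Npr3-positive cells 0.79. Of 22 G2/M genes 5 were higher (Mki67, Kif20b, Top2a, Cenpe and Cenpf) and 2 lower (Ccnb2 and Cenpa) at 1.5-fold before centring. At that size 5.99% of all genes were higher and 13.7% lower. However, 57.7% of the mutant Mki67 UMIs came from 1 cell.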

How the data were processed

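The deposited matrices hold UMI counts, whole numbers for each gene in each barcode, which the authors produced in Cell Ranger (version 3.0.2 in both file headers). Seurat is named, without a version, in the submitters' processing notes. The genome build is not given in the sources used here. Per the files, the control matrix was deposited unfiltered and the mutant matrix filtered for barcodes. Identifiers were matched to GENCODE M21 (99.6% of 31053) for positions. UMIs were summed over the cells of each class and library and divided by the class total (CPM). Ratios are log2((CPM + 10)/(CPM + 10)). Where a class had 0 UMIs, 3 UMIs per library served as its upper limit. Intervals at 95% are exact Poisson for levels, exact conditional binomial for ratios, Clopper-Pearson for shares and Newcombe's for differences. UMIs of 1 cell are not independent cells, so intervals cover counting error only. Genes were named by rule: the 12 highest and 12 lowest in each comparison (in both libraries for classes, by the smaller ratio), without gate, mitochondrial, ribosomal, haemoglobin, X-inactivation and Y-linked genes and numbered models, with list members past 1.5-fold; Mfng, Pdgfb, Cd34, Klf2 and Wnt4 in the split by vessel genes were picked after their values were seen. The members and the 37 gene lists were chosen with earlier results of these data known. Of the 12 highest genes between genotypes, 1 is not reported here. The ratio step was tested on simulated data. Doublets were scored with Scrublet in scanpy 1.11.5 (expected rate 6%) and not removed. numpy 2.4.6, scipy 1.17.1 and pandas 2.3.3 were used with Python 3.11.15.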

Additional observations from a re-analysis of the deposited data

Results flagged for a closer look

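Among the highest and lowest genes named between genotypes, 5 differed between the libraries in opposite directions in Npr3-free and Npr3-positive cells. Only genes past 1.5-fold relative to the median gene in both classes were counted. Smaller opposite differences, such as those of Klf2 and Jund, were left out. Fabp4, a gate gene outside this naming, also went opposite ways, as given above, so the 5 are not a full set. With 1 library a group these differences between the libraries were not tested. Myl7 had a log2 ratio of 4.27 relative to the median gene in Npr3-free cells and -1.35 in Npr3-positive cells, Fabp3 3.06 and -1.17, and Acta2 2.92 and -2.57. The histone gene Hist1h2bc had -1.57 in Npr3-free and 0.84 in Npr3-positive cells, and Atf3 had -1.26 and 0.99.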

How the results depend on the processing

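No paired analysis was possible because each group has 1 library and the labels give no shared replicate numbers. Of 85 recomputed values of the share difference and of the gene counts, 59 moved by less than the interval or by less than 1.5 times. The share difference was not recomputed for the settings chosen after seeing the data. Under the other settings that changed which cells entered, its 0.023 points lay between -0.13 and 0.023, so its sign was not settled. The count of higher class genes (32) became 76 with Npr3-positive cells from 2 UMIs and 18 with a pseudocount of 50 CPM. That of lower class genes (84) became 153 with at least 2 vessel UMIs, 180 with at least 2 vessel genes seen (chosen after seeing the data), 27 without cells holding a blood marker UMI, 38 with a pseudocount of 50 CPM and 159 at a minimum of 20 CPM and 10 UMIs. Genes higher in the mutant (60) became 36 without blood marker cells, 113 with totals free of mitochondrial, ribosomal and haemoglobin genes, 93 centred, 31 with a pseudocount of 50 CPM, 177 at 20 CPM and 96 without the deepest cell of each class. The settings without haemoglobin-rich, epicardial or mesenchymal, or deepest cells were also chosen after seeing the data. Genes lower in the mutant (56) became, in the same order, 101, 34, 20, 11, 123 and 37, and 95 with a pseudocount of 1 CPM, 123 without cells with epicardial or mesenchymal UMIs and 130 with at least 2 vessel genes. Thinned to 1000 UMIs, 11 and 9 Npr3-free and 6 and 10 Npr3-positive cells were left, and the 4 counts were 1, 1, 1 and 3. The cause was not tested where the alternative did not itself remove cells or genes.

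Directions turned as follows, in log2 ratios that are not centred. Without the top doublet scores Car2 became -1.02, Mt1 -1.47, the red cell class median in mutant -7.70 and the red cell genotype median -2.16; without haemoglobin-rich cells Car2 became -1.03 and Mt1 -1.38. Atf3 became 0.34 with at least 2 vessel UMIs, 0.26 thinned and 0.76 with at least 2 vessel genes, where Acta2 became -1.35 and Klf2 0.018. Thinned, Plpp3 became 3.60 and Klf2 1.26. Col1a1 became 0.32 in the control with Npr3-positive cells from 2 UMIs. Without blood marker cells the red cell class median in mutant became -2.19 and the G2/M phase class median in control -0.044, and with every cell weighted equally the former became -0.66. Without the deepest cells Nppc became 2.53 and the flow and valve class median in mutant 0.15. The p53 targets class median in mutant became -0.010 at 20 CPM, and the fatty acid uptake class median in mutant -0.00039 without cells with epicardial or mesenchymal UMIs. Depth limits the description: most ligands had under 10 UMIs in each library, so their ratios have wide intervals.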

Other observations

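Counts of further groups follow. At 1.5-fold 4.94% of all genes were higher and 8.5% lower between the classes, and 5.99% higher and 13.7% lower between genotypes. The counts for RNA-binding proteins lay close to or below these shares and do not set that group apart. Of 28 measured genes for RNA-binding proteins known to carry methylated arginines, 1 (Nolc1) was at least 1.5-fold higher and 1 (Safb) lower in Npr3-free than in Npr3-positive cells of both libraries, and between genotypes 2 were higher (Caprin1 and Ddx5) and 1 lower (Alyref) of 26. The 7 basement membrane genes measured held 1 lower gene, Fn1, and the collagen Col4a1 had 227 against 134 CPM in the control and 252 against 241 CPM in the mutant. Of 7 genes for BMP and TGF-beta signalling, Tgfb2 (14.8 against 63.9 CPM and 10.4 against 55.6 CPM) and Id2 (66.8 against 164 CPM and 60.5 against 234 CPM) were lower. Of 13 immediate early genes, Ier3 was higher and Egr1 lower in both libraries, with list medians of 0.42 in the control and -1.40 in the mutant.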
